A study of Mus musculus with 3 samples.

Results

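DNA replication machinery is described here as 45 genes, of the 23454 genes for which the mouse arrays carried a named probe. The genes were chosen by their known role, no array value entered the rule, and a probe belonged to a gene when the transcript identifier in the array file was that gene's. All 45 genes had a probe, and 69 probes in all read them: 24 genes had 1 probe, 18 had 2 and 3 had 3. RNA of 30 pooled blastocysts was read on 1 array for each of 3 conditions, and by the sample labels every pool came from zygotes that were flushed from the oviducts of superovulated, mated ICR females and cultured in KSOM medium for 96 h. The young embryos came from females aged 3 to 6 weeks and were cultured without treatment. The aging embryos came from females aged 43 to 53 weeks and were cultured in the same way. The suppressed aging embryos came from females of that same older age and were cultured with an anti-CXCL5 neutralizing antibody at 10 μg/ml and a selective CXCR2 antagonist at 10 nM, both agents together. CXCL5 is a secreted chemokine and CXCR2 its receptor, and the question of the comparison was whether blocking them moved the expression of aging embryos. The number of females behind a pool was not given, and young embryos with the agents, or aging embryos with 1 agent alone, were not analysed here.

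DNA replication starts at origins, where the origin recognition complex (ORC), Cdc6 and Cdt1 load the ring of Mcm2 to Mcm7 onto DNA before S phase, and geminin binds Cdt1 to prevent a repeated loading. Cdc45 and the GINS complex turn the ring into the active helicase, primase and polymerase α start each strand, and polymerases δ and ε extend it on the sliding clamp PCNA, which replication factor C (RFC) opens and closes. Cells of the preimplantation embryo divide fast and in part on products stored in the oocyte, and many replication genes are known targets of the E2F factors, which act at the entry into S phase.

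The promoters were read first. The rule that chose the genes did not use E2F letters, but many such genes are known E2F targets, so a high share was likely beforehand. The shares below are therefore a description and no independent test. RefSeq promoters of 300 bases (250 before and 50 after the transcript start, build GRCm38.p6) were at hand for 37 of the 45 genes, as 45 promoters, and there was none for Gmnn, Mcm4, Gins1, Gins2, Gins4, Prim2, Pole and Rfc2. The letters TTTCGCGC, TTTGGCGC, TTTCCCGC or TTTGGCGG, searched on both strands, were in 18 of the 45 promoters (40%), against 777 of all 32851 promoters (2.37%). By gene, 18 of 37 held them (48.6%), against 2.70% of all 27025 genes. The CCAAT box, which the factor NF-Y reads, was in 25 of the 45 promoters (55.6%) and in 37.4% of all promoters, and both kinds of letters stood in 9 (20%) and in 0.953%. A match of letters is a description of the sequence and not a site. The 6 stretches of 50 bases shown here are of 3 helicase ring subunits, 2 licensing genes and the large subunit of RPA, whose array values are given below. They are written in the direction of the gene, with the E2F letters in capitals; in Mcm5, 2 matches on opposite strands overlap.
Orc1: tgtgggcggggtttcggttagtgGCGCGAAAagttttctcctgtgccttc
Cdc6: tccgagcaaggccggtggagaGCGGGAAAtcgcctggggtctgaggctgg
Mcm5: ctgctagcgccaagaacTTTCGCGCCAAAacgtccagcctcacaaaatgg
Mcm6: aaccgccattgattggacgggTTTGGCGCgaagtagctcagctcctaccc
Mcm7: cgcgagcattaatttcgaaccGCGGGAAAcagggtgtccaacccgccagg
Rpa1: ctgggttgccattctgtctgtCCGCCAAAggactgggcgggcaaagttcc
The stretches are chr4:108579404-108579453 on the plus strand (Orc1), chr11:98907992-98908041 on the plus strand (Cdc6), chr8:75109339-75109388 on the plus strand (Mcm5), chr1:128359724-128359773 on the minus strand (Mcm6), chr5:138172020-138172069 on the minus strand (Mcm7) and chr11:75348572-75348621 on the minus strand (Rpa1). All of them end before the transcript start. The other genes with such letters were Orc3, Orc4, Cdt1, Mcm3, Gins3, Pola1, Pola2, Pold1, Pold3, Pole2, Rfc3 and Lig1.

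Values on the arrays are log2 levels, that is the log2 of the scanner intensity minus the 75th percentile of the same array, so that 0 is the brightness of that percentile. A gene with several probes is given by its brightest probe, and a difference of over 1 on this scale is called over 2-fold. With 1 array per condition there was no error between pools and no test. The only error that could be measured was between repeated spots of 1 probe on an array: their median SD was 0.052, 0.049 and 0.045 on the young, aging and suppressed aging arrays, which gives a difference between 2 arrays an SD of 0.0697. All 69 replication probes were printed once and none was among the repeated ones. In a pool of whole embryos, fewer cells of a type and less RNA per cell cannot be told apart.

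Every replication gene was detected in every pool. All 45 genes and all 69 probes were above background on the 3 arrays, whereas 13809 of all 23454 genes (58.9%) were. The dimmest of the 45 was Pola2 on the aging array, 1.26 above the detection limit of that array on the log2 scale.

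The arrays as a whole were similar in depth and held the embryo's own cell types. Between 56.4% and 58.7% of probes were above background, and the 75th percentile of intensity was 145, 155 and 122 on the young, aging and suppressed aging arrays. All 9 trophectoderm markers, all 5 epiblast markers and all 4 primitive endoderm markers were above background on every array, with summed linear levels of 523, 399 and 470 for trophectoderm of 1015, 1225 and 1133 for epiblast and of 15.9, 19.0 and 15.9 for primitive endoderm. Of 8 oocyte markers, 4, 5 and 3 were above background on the 3 arrays, with summed levels of 0.71, 1.90 and 0.74, and Zp1, Oosp1 and Mos were below it on all. Of 9 cumulus and granulosa cell markers, Cyp19a1, Amh, Foxl2 and Nr5a2 were above background on all 3 arrays (summed levels of the list 410, 378 and 443). Fshr, Has2, Ptx3, Inhba and Cyp11a1 were below it on all. Nearly all of that sum was Foxl2 alone, with log2 levels of 8.66, 8.54 and 8.77. Nr5a2 was 2.25, 2.27 and 2.23, and Cyp19a1 and Amh were dimmer. Similarly, 2 of 5 blood markers with a probe were above background on all (summed levels 0.93, 1.56 and 1.98). Of 4 oviduct markers 1 was, Epcam, which made nearly all of the summed levels of 59.9, 43.1 and 57.4. The part of these cell types in the differences below was not tested.

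**Figure D1:**
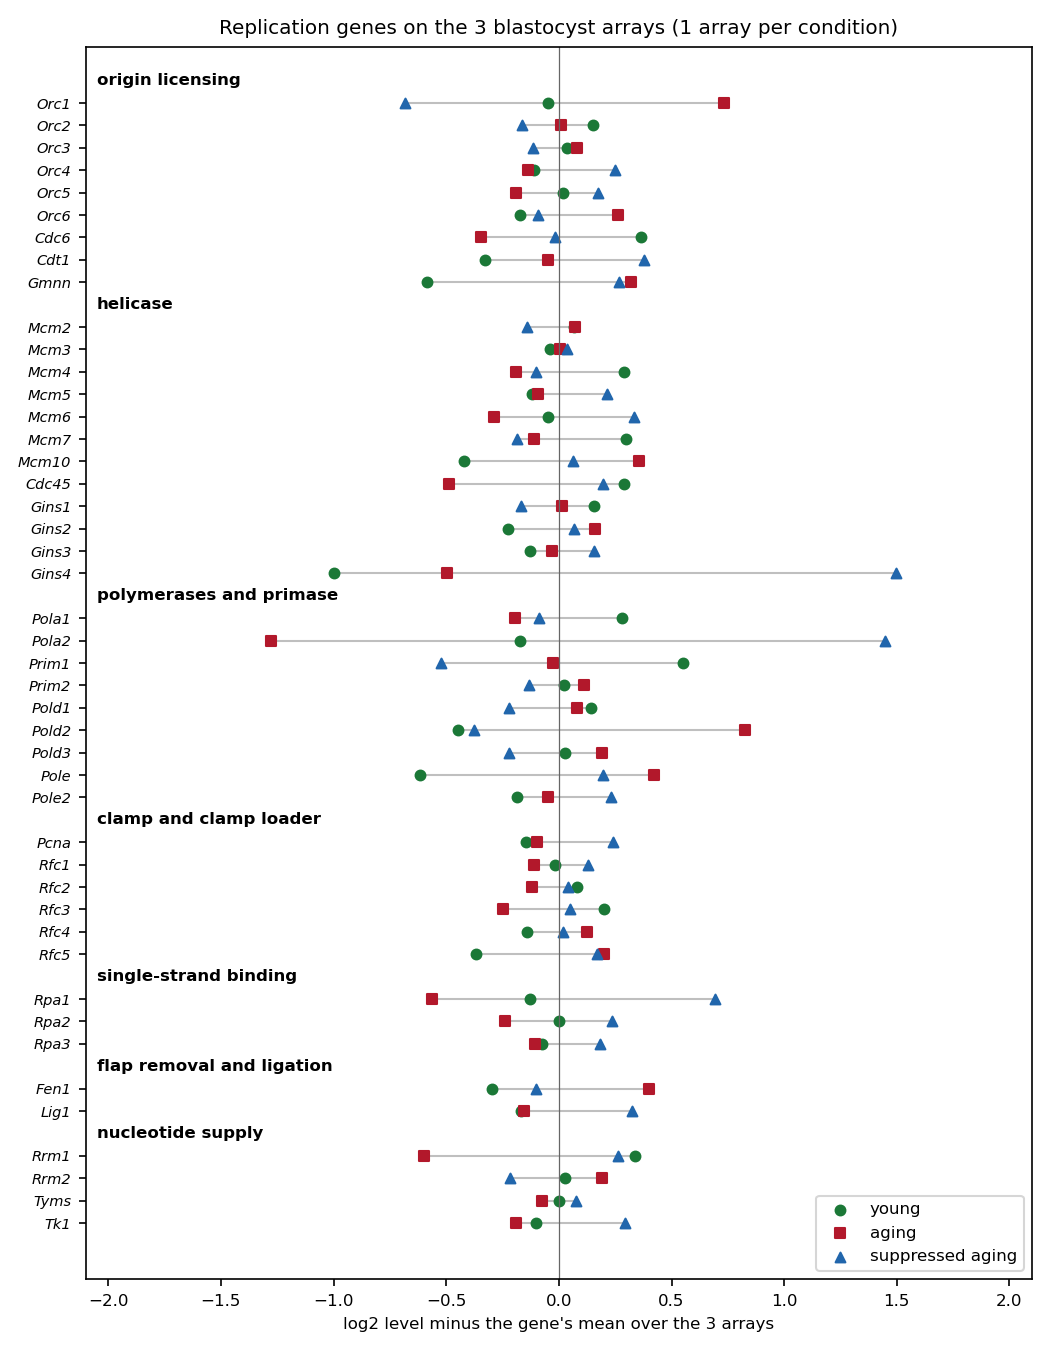
Level of each of the 45 replication genes on the young, aging and suppressed aging arrays (1 array each), as the log2 level minus the gene's mean over the 3 arrays, ordered by role. For 29 of the 45 genes the 3 points lie within 0.5 of each other, and Pola2 (2.73), Gins4 (2.49) and Orc1 (1.41) have the widest ranges.

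As a set, the replication genes differed little between young and aging blastocysts. In aging minus young, 23 were higher and 22 lower, with a median difference of 0.01, and the median over all 16161 genes compared was 0.03. The middle part of the set ran from -0.24 to 0.27 (lower to upper quartile), and 32 of 45 genes were within 0.5 in either direction. Pold2 and Pole were over 2-fold higher and Pola2 over 2-fold lower in aging blastocysts. These are 6.67% of the replication genes, beside 19% of all genes (9.86% higher and 9.19% lower).

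By the brightest probe, the 2 remaining comparisons gave slightly more genes higher in the suppressed aging pool. Against aging and against young, 55.6% and 60% of the set were higher, beside 49.7% and 52.4% of all genes. Among genes between the set's lower and upper quartile of level, 49.1% and 55.6% were higher. On the second probes of 21 genes, 11 were higher and 10 lower against aging, and 10 higher and 11 lower against young. In suppressed aging minus aging, 25 replication genes were higher and 20 were lower (median 0.11, and 0.00 over all 15872 genes). Gins4, Pola2 and Rpa1 were over 2-fold higher and Orc1 and Pold2 over 2-fold lower, 11.1% of the set beside 17.3% of all genes (8.76% higher and 8.5% lower). With the authors' processed values, which hold 1 factor per array, the median of the set was 0.0177 and that of all genes -0.09. With normexp background correction, a model of the scanner background, they were 0.0209 and 0.03. Against young blastocysts, 27 were higher and 18 were lower in suppressed aging ones (median 0.15, and 0.03 over all 15928 genes), and Gins4 and Pola2 were over 2-fold higher and Prim1 over 2-fold lower, 6.67% beside 16.3% of all genes (8.68% higher and 7.63% lower). With normexp this median was -0.0217, with 22 genes higher and 23 lower. These comparisons share arrays, so their values are not independent of each other.

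The replication genes were brighter than most, and from a log2 level of -2 upward the median difference of all genes was smaller the brighter the probe. The median level of the set was 3.08 and that of all genes above background on the 3 arrays was 0.52. For a comparison at like level, genes with a mean level between the lower and upper quartile of the set (1.23 to 4.31) were taken, which were 23 replication genes of 4159 genes in all. None of the 23 was over 2-fold apart in aging minus young, beside 8.78% of the 4159 (4.16% higher and 4.62% lower). After suppression, 2 of the 23 were over 2-fold apart from aging blastocysts (Gins4 higher and Orc1 lower), beside 7.17% (4.76% higher and 2.4% lower). From young blastocysts, 2 of the 23 were over 2-fold apart in the suppressed aging pool (Gins4 higher and Prim1 lower), beside 7.6% (4.28% higher and 3.32% lower). By absolute difference, the median of the 23 was 0.28, 0.30 and 0.33 in the 3 comparisons and that of the 4159 was 0.35, 0.31 and 0.30. The range over the 3 arrays was over 1 for 3 of the 23 (13.0%) and for 15.8% of the 4159. Over all levels it was over 1 for 7 of the 45 (15.6%) and for 26.6% of all genes. Of the 12 replication genes at or under the lower quartile of signal, 5 were over 2-fold apart in some comparison, and of the 33 others 2. All genes showed such a dependence on level. In a single comparison, 24.2% to 26.7% of all genes at a level of -2 to -1 were over 2-fold apart, and 7.50% to 8.05% at 2 to 3.

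**Figure D2:**
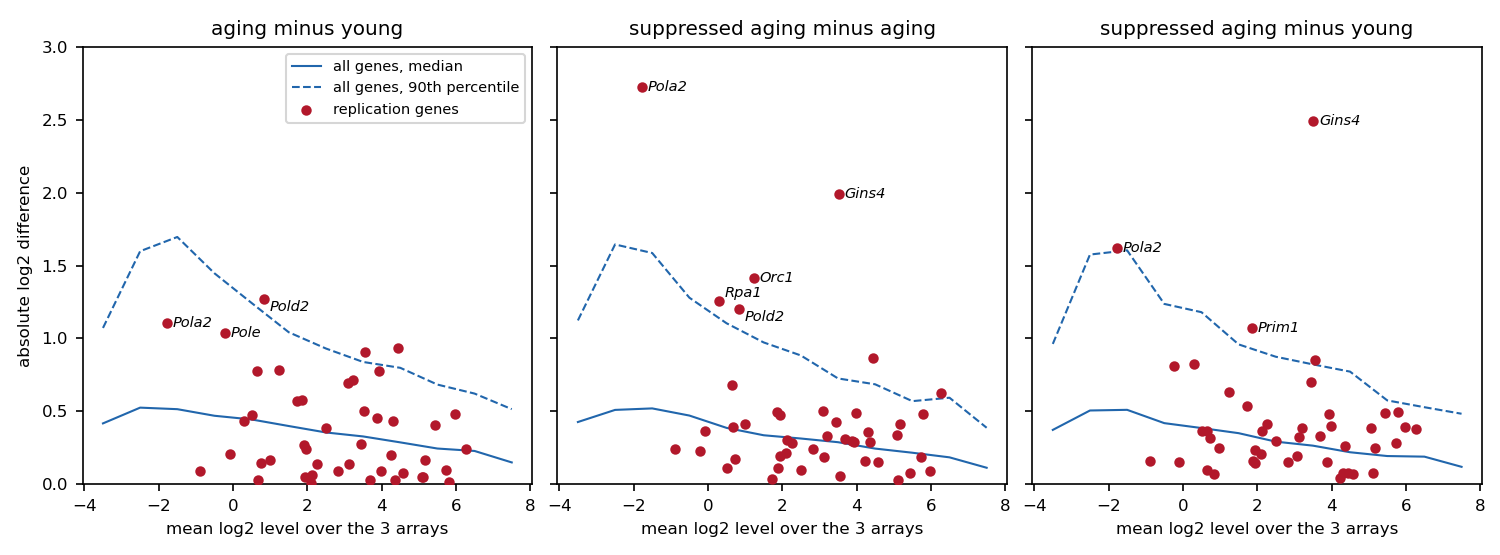
Absolute log2 difference of each replication gene (points) in the 3 comparisons against its mean log2 level, with the median (line) and 90th percentile (broken line) of all genes in bins of level. The median of all genes falls from bin to bin from a level of -2 upward and is lower again in the dimmest bin, and Gins4 and Pola2 lie farthest above the broken line in suppressed aging minus aging; genes over 2-fold apart are named.

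By the brightest probe, Orc1 was the one of the 9 origin licensing genes over 2-fold apart in a comparison. This is 11.1% of the group, beside 26.6% of all genes above background on the 3 arrays. Orc1, the large ATP-binding subunit of the origin recognition complex, had a level of 1.18 in young, 1.96 in aging and 0.55 in suppressed aging blastocysts. It was thus highest in the aging pool, and suppressed aging minus aging was -1.41. A second Orc1 probe gave 0.35, -0.67 and -0.39, lowest in the aging pool, and a difference of 0.28. The 2 probes of this gene therefore put the aging pool at opposite ends.

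Orc3 had the smallest range of the licensing genes, with 1.98, 2.02 and 1.83 in young, aging and suppressed aging blastocysts by its brightest probe. A second Orc3 probe was not even: it gave 0.90, -0.18 and -0.23, highest in the young pool, with -1.09 in aging minus young and -1.14 in suppressed aging minus young. The third gave -0.40, -0.38 and -0.36. By their brightest probes, the other subunits of the complex (Orc2, Orc4, Orc5 and Orc6) had ranges of 0.32 to 0.44. The second probe of Orc2 (0.31, -0.14 and 0.57) and that of Orc4 (-0.12, 0.60 and 0.56) had another order of arrays than the first. Cdc6 and Cdt1, which bring the helicase ring to the origin, differed in pattern. Cdc6 was 3.58, 2.87 and 3.20, lowest in the aging pool, and its second probe was 2.23, 1.65 and 1.46. Both Cdc6 probes were lower in aging than in young blastocysts (-0.71 and -0.58), but in suppressed aging minus aging they had opposite directions (0.33 and -0.19). Cdt1 was 3.13, 3.40 and 3.83, lowest in young and highest in suppressed aging blastocysts. Geminin (Gmnn), the inhibitor of Cdt1, was 2.97, 3.87 and 3.82, and both pools of older females were above the young one by 0.91 and 0.85. Its second probe gave 2.39, 2.83 and 2.46, with differences of 0.43 and 0.07.

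No gene of the helicase ring was over 2-fold apart in any comparison, on any probe. Few genes as bright as these were: 8.05%, 7.77% and 7.50% of all genes at a level of 2 to 3 in the 3 comparisons. At a level of 5 to 6 the shares were 3.43%, 1.14% and 3.66%. Nothing was therefore read from the absence of such a gene. The 6 genes Mcm2 to Mcm7 lay between -0.48 and 0.05 in aging minus young (median -0.12), between -0.21 and 0.62 in suppressed aging minus aging (median 0.06) and between -0.49 and 0.38 in suppressed aging minus young. Mcm3 had the smallest range of all 45 genes, 0.076, with 5.07, 5.12 and 5.15 in young, aging and suppressed aging blastocysts by its brightest probe. Its second probe was less even, with 3.99, 4.37 and 3.96, highest in the aging pool, and the remaining probe gave 1.28, 1.28 and 1.33. Of Mcm4, Mcm6 and Mcm7, all lower in aging than in young blastocysts, Mcm6 was the one that was higher than in young blastocysts after suppression. It was 6.22, 5.97 and 6.60. Its second probe gave 3.75, 3.33 and 3.59, lowest in the aging pool as well but highest in the young one. Mcm7 was 5.72, 5.32 and 5.24, and its second probe, at 3.75, 3.33 and 3.65, was also lower in aging than in young blastocysts but higher in suppressed aging than in aging ones. Mcm2 (range 0.21), Mcm5 (0.33) and Mcm4 (0.48) had 1 probe each.

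Gins4 (SLD5), a subunit of the GINS complex that activates the ring, had the widest range of the helicase genes. Its level was 2.51 in young, 3.02 in aging and 5.01 in suppressed aging blastocysts, so that suppressed aging exceeded aging by 1.99 (3.97-fold) and young by 2.49 (5.63-fold). The second Gins4 probe gave 2.09, 3.49 and 2.50, highest in the aging pool, with a suppressed aging minus aging difference of -0.99. For this gene too the probes disagreed in direction. Its partners in the complex, Gins1, Gins2 and Gins3, had ranges of 0.28 to 0.39. A second probe of Gins1 differed more than the first, with -0.05, -1.86 and -1.48, which is -1.81 in aging minus young against -0.14.

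Cdc45, the other activating subunit, was 0.93, 0.16 and 0.84 in young, aging and suppressed aging blastocysts, lowest in the aging pool. Its second probe gave -1.32, -1.30 and -0.88 and had no such low value. Mcm10, which takes part in the start of the fork, was 3.51, 4.29 and 3.99, lowest in the young pool.

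The 9 polymerase and primase genes held 4 of the 7 genes with a range over 1 (44.4% of the group, beside 26.6% of all genes). Each of these 4 had 1 probe. Pola2, Pold2 and Pole were dim, with mean levels of -1.78, 0.84 and -0.23, under the lower quartile of the set (1.23). Pola2, the B subunit of polymerase α, was -1.95 in young, -3.06 in aging and -0.33 in suppressed aging blastocysts. It was the dimmest gene of the set, with intensities of 37, 19 and 97. The differences were -1.10 (aging minus young), 2.73 (suppressed aging minus aging, 6.62-fold) and 1.62 (suppressed aging minus young). With normexp they were -0.42, 1.20 and 0.78, of which 1 was over 2-fold. Of all replication genes it alone was over 5-fold apart in suppressed aging minus aging.

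Prim1, the catalytic primase subunit, was 2.40, 1.82 and 1.33 in young, aging and suppressed aging blastocysts, highest in the young pool, and suppressed aging minus young was -1.07 (-0.85 with normexp, within 2-fold). Prim2, its large partner, had the smallest range of the group, with -0.87, -0.78 and -1.02. The catalytic subunit of polymerase α, Pola1, was 0.79, 0.31 and 0.42, highest in the young pool, and its second probe was 0.24, 0.65 and 0.09, highest in the aging pool.

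Pold2, an accessory subunit of polymerase δ, was 0.39, 1.67 and 0.46. The aging pool stood apart, with 1.27 in aging minus young and -1.20 in suppressed aging minus aging, and the young and suppressed aging pools differed by 0.07. All 3 polymerase δ genes of the set were lower in suppressed aging than in aging blastocysts, with differences from -1.20 to -0.30. Of these, Pold1 (2.26, 2.20 and 1.90) had the smallest. Pold4, a further polymerase δ subunit on the wider list below, went the other way (0.22). Pold3 was 1.01, 1.18 and 0.76, and both of its probes were lowest in the suppressed aging pool.
Pole, the catalytic subunit of polymerase ε, was -0.84, 0.19 and -0.03, lowest in the young pool, with 1.04 in aging minus young (0.65 with normexp, within 2-fold). Its partner Pole2 was 2.08, 2.21 and 2.49, also lowest in the young pool.

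**Figure D3:**
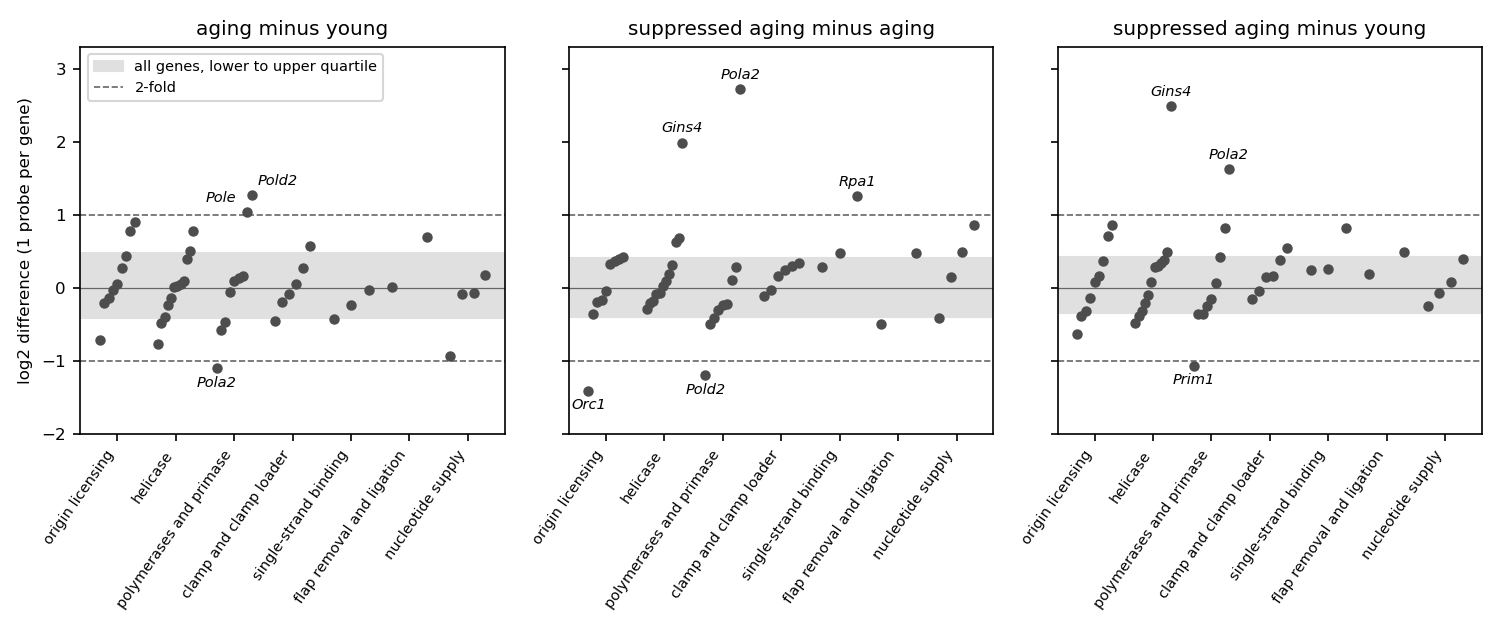
Log2 difference of each replication gene in the 3 comparisons, by role, with 1 point per gene (brightest probe). The grey band is the lower to upper quartile of all genes and the broken lines are 2-fold. The 7 genes beyond 2-fold in at least 1 comparison are named, 4 of them among the 9 polymerase and primase genes.

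The clamp, its loader and the genes of lagging strand maturation were within 2-fold in all comparisons by the brightest probe. Beside this, 26.6% of all genes above background on the 3 arrays had a range over 1, and 15.8% of those at like level. Pcna, the clamp, was 4.93, 4.98 and 5.31 in young, aging and suppressed aging blastocysts. The 5 loader genes lay between -0.45 and 0.57 in aging minus young and between -0.11 and 0.30 in suppressed aging minus aging. Rfc2 had the smallest range, with 4.32, 4.12 and 4.28. Rfc3 was 4.07, 3.62 and 3.92, lowest in the aging pool, whereas its second probe was highest there (0.40, 0.73 and 0.05). Rfc1 (range 0.24) and Rfc4 (0.27) were close to even, and Rfc5 was lowest in the young pool (1.36, 1.93 and 1.90).

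Fen1, which cuts the flaps of Okazaki fragments, was 2.79, 3.48 and 2.98 and highest in the aging pool. Lig1, the ligase that seals them, was 5.63, 5.64 and 6.12 and highest in the suppressed aging pool. A second Lig1 probe gave 3.69, 3.17 and 3.72, with 0.55 in suppressed aging minus aging beside 0.48 of the first.

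The 3 subunits of replication protein A, which coats single-stranded DNA, were all highest in suppressed aging blastocysts, and each had 1 probe. Rpa1, the large subunit, was 0.17, -0.26 and 0.995 in young, aging and suppressed aging blastocysts, with 1.25 (2.38-fold) in suppressed aging minus aging, which was 0.91 and within 2-fold with normexp. Rpa2 was 1.95, 1.71 and 2.19. Rpa3 had the smallest range, with 4.29, 4.26 and 4.55, and its aging and young levels differed by less than the SD between spots. The direction of that difference was turned by normexp (0.0249), quantile normalization (0.0151), housekeeping centring (0.0283) and the authors' values (0.0129).

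By the brightest probe, Rrm1 differed most of the genes that supply nucleotides. This large subunit of ribonucleotide reductase, the enzyme that makes deoxynucleotides, was 4.77, 3.84 and 4.70 in young, aging and suppressed aging blastocysts. The aging pool was the low one, with -0.94 in aging minus young and 0.86 in suppressed aging minus aging, both short of 2-fold. The small subunit Rrm2 was 5.18, 5.35 and 4.94, highest in the aging pool and lowest in the suppressed aging one. Tyms, which makes thymidylate, had the smallest range, with 4.58, 4.50 and 4.65 by its brightest probe. Its second probe was 2.05, 2.01 and 2.74, highest in the suppressed aging pool by 0.73 over aging. Tk1, the thymidine kinase of the salvage route, was 3.88, 3.80 and 4.28. Its second probe gave 4.66, 3.36 and 3.18, -1.30 in aging minus young and -1.47 in suppressed aging minus young. Both of these were over 2-fold. In suppressed aging minus young the first Tk1 probe gave 0.40, so the probes had opposite directions there.

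The probes of a gene often differed. Of the 21 genes with more than 1 probe, the brightest and the second probe had the same direction in 13 (61.9%) in aging minus young, 8 (38.1%) in suppressed aging minus aging and 16 (76.2%) in suppressed aging minus young, and over all genes with a second probe this was 56.5%, 54.5% and 55.8%. The brightest probe was over 2-fold in 0, 2 and 1 of the 21, beside 881 of 5542, 751 of 5451 and 743 of 5471 over all genes with a second probe. In none of the 21 were both probes over 2-fold in 1 direction. Over all genes with a second probe, 3.79%, 2.92% and 2.71% were over 2-fold on both, shares that come to under 1 gene in 21, so nothing was read from the count. The median gap between the 2 probes of a gene was 0.47, 0.43 and 0.39 on the log2 scale, larger than the median absolute differences of the set, and the largest was 2.97, of Gins4 in suppressed aging minus aging. Of the 7 genes over 2-fold apart, Pola2, Prim1, Pold2, Pole and Rpa1 had no second probe.

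**Figure D4:**
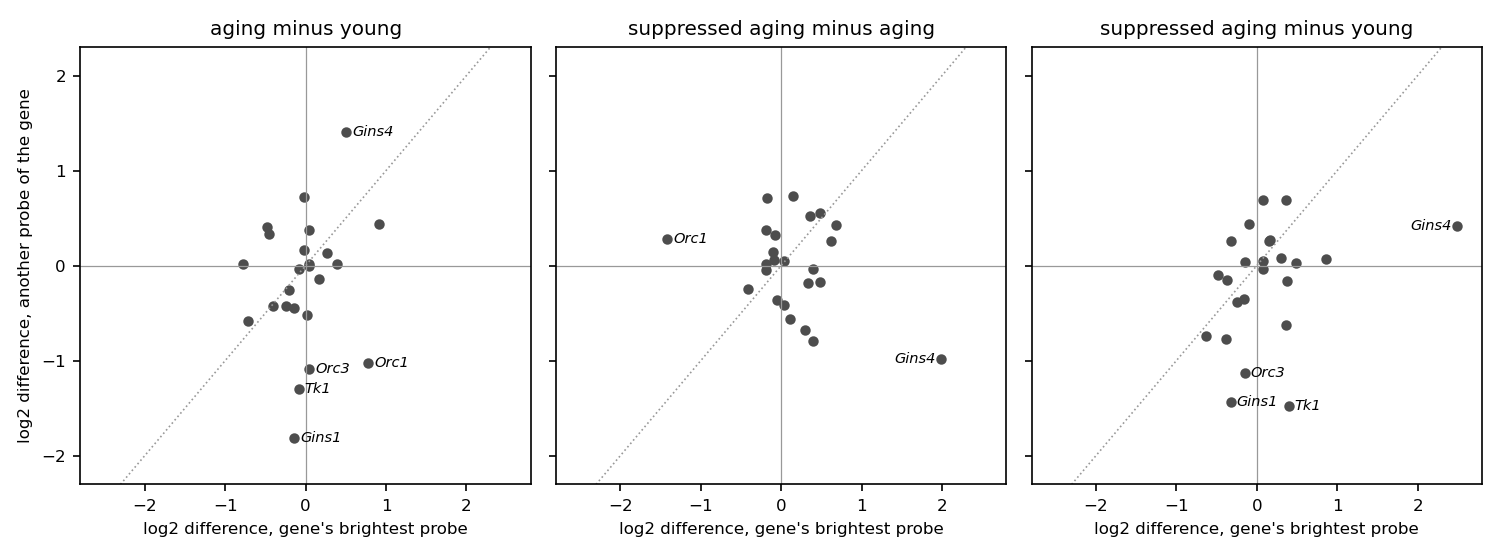
Log2 difference of each other probe (vertical axis) against the brightest probe (horizontal axis) of the 21 replication genes with more than 1 probe, in the 3 comparisons; there are 24 points a panel, since Orc3, Orc4 and Mcm3 have 2 other probes each, and the dotted line is equality. Points whose probes have the same direction lie in the lower left and upper right of each panel, 14, 9 and 17 of 24, and genes over 2-fold apart on either probe are named.

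Members with and without E2F letters in a promoter were compared as a description, by the brightest probe. After suppression (against aging), 13 of the 18 genes with the letters were higher and 5 lower (median 0.29, from -1.41 to 2.73). Of the 19 with a promoter but no such letters, 9 were higher and 10 lower (median -0.03, from -1.20 to 0.86). Over all genes, 49.7% were higher. The second probes did not keep this difference. With the letters the second probe was lower in Orc3 (-0.05), Orc4 (-0.04), Cdc6 (-0.19), Mcm3 (-0.41), Pola1 (-0.56), Pold3 (-0.25) and Rfc3 (-0.68). It was higher in Orc1 (0.28), Mcm6 (0.26), Mcm7 (0.32) and Lig1 (0.55). Without them it was higher in Orc2 (0.71), Orc5 (0.52), Cdc45 (0.42), Rfc4 (0.14) and Tyms (0.73) and lower in Tk1 (-0.17). Against young blastocysts, 10 of the 18 and 13 of the 19 were higher in the suppressed aging pool (medians 0.18 and 0.15). In aging minus young, 9 of the 18 and 9 of the 19 were higher (medians -0.01 and -0.03). Of the genes with the letters printed above, Mcm5 (0.31), Mcm6 (0.62), Cdc6 (0.33) and Rpa1 (1.25) were higher after suppression by the brightest probe. Mcm7 and Orc1 were not (-0.08 and -1.41). The second probes of Mcm7 and Orc1 were higher and that of Cdc6 was lower, as given above.

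A wider list of 51 replication genes, of origin firing, fork protection, chromatin assembly, nucleotide supply and S-phase control, had no common direction either. In aging minus young 28 were higher and 22 lower of 50 compared (median 0.08), with Recql4 over 2-fold higher and Top2a and E2f3 over 2-fold lower. These are 6% of the 50, beside 19% of all genes. Top2a, the topoisomerase that untangles sister DNA, was 3.73, 2.66 and 3.35 in young, aging and suppressed aging blastocysts, and its second probe gave -0.999 in aging minus young beside -1.07, so 2 probes placed it lower in the aging pool. E2f3, an activating E2F factor with 1 probe, was -0.35, -2.11 and -2.34, highest in the young pool. Recql4, a helicase that acts in origin firing, was 1.0, 2.23 and 2.38, and its 4 probes ran from -0.76 to 1.22 in aging minus young.

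Of the 51, 26 were higher and 25 lower in suppressed aging minus aging (median 0.00). E2f2 was 0.29, -0.67 and 1.50, lowest in the aging pool, with 2.17, and its second probe (0.38, -1.09 and 0.33) gave 1.42, so that E2f2 was over 2-fold higher on both probes. Asf1a, a histone chaperone above background on the suppressed aging array alone, was at least 1.16 higher on the log2 scale, as a bound against the detection limit of the aging array. Mcm9, a helicase outside the ring, was -1.81, -1.23 and -3.03, lowest in the suppressed aging pool, by -1.81 against aging. E2f2, Asf1a and Mcm9 were 5.88% of the list, beside 17.3% of all genes. The Recql4 probes ran from -0.39 to 3.54 in this comparison. Against young blastocysts, 26 were higher and 25 lower in suppressed aging ones (median 0.01). By the brightest probe, Recql4 (1.38), E2f2 (1.21) and Asf1a (at least 1.03) were over 2-fold higher. Dna2 (-1.07), Mcm9 (-1.22) and E2f3 (-1.99) were over 2-fold lower. Together they are 11.8% of the list, beside 16.3% of all genes. The Recql4 probes ran from -0.10 to 4.41 here, and the second E2f2 probe gave -0.05, so the probes of both genes disagreed.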

How the data were processed

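RNA of 1 pool of 30 blastocysts per condition was read on Agilent SurePrint G3 Mouse GE v2 arrays with 1 dye (Cy3). Per spot, the authors deposited a scanner intensity, background-subtracted and detrended by Agilent Feature Extraction 12.0.3.1 and not normalized between arrays; their processed table holds the same intensity times 1 factor per array (3.46, 3.34 and 3.96). The paper's methods name amplification of mRNA by a single-primer PCR and the labels a kit for cRNA, and the files do not show which applies.

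From the deposited intensities, control spots and outlier spots (100, 85 and 118) were left out, log2 values of repeated spots were averaged, and each array's 75th percentile was subtracted. Genes were named through RefSeq (GRCm38.p6; the array header names mm9, so no array coordinate is given): 33754 of 56591 probes had 1 gene. A gene was given by the probe with the highest mean signal. A probe above background on 1 of 2 arrays gave a bound, on neither no difference. No test was possible with 1 array per condition, and the number of arrays limits the precision. Genes over 2-fold apart, the one with the smallest range per role and the over 2-fold genes of the wider list are given with levels. The 45 genes, the lists, the motifs and the comparisons were chosen with earlier results of these data known. Alternatives were normexp (limma 3.58.1, offset 50), quantile normalization, 2 other centrings, the authors' values, outlier spots kept, other probe choices, other filters and a 5-fold threshold. The procedure was tested on simulated data. Computations used Python 3.11.15, NumPy 2.4.6, pandas 2.3.3, Matplotlib 3.10.9 and R 4.3.3.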

Additional observations from a re-analysis of the deposited data

How the results depend on the processing

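In aging minus young, the median of the set lay between -0.14 and 0.06 over all alternatives. The 3 genes over 2-fold apart became 1 (Pold2) with normexp and 0 at 5-fold. With the second probes they became 5 of 21 (Gins1, Gins4, Orc1, Orc3 and Tk1), with a median of -0.14. On second probes, 22.1%, 20.8% and 18.6% of all genes were over 2-fold apart in aging minus young, suppressed aging minus aging and suppressed aging minus young. In suppressed aging minus aging the median of 0.11 became 0.0209 with normexp and 0.0177 with the authors' values, and the 5 genes became 4 with normexp (without Rpa1), 3 with the mean over probes, 0 of 21 with the second probes and 1 (Pola2) at 5-fold. The second probe turned Orc1 to 0.28 and Gins4 to -0.99. In suppressed aging minus young the median of 0.15 became -0.0217 with normexp and -0.0372 with the second probes. The 3 genes became 1 (Gins4) with normexp, 3 of 21 with the second probes (Gins1, Orc3 and Tk1, all lower) and 1 at 5-fold. The cause was not tested. Quantile normalization, the 2 other centrings and the outlier spots kept changed no median of the set by more than the spot SD of 0.0697 and no count by over 1.5 times. The 2 filters on dim probes could not change a value of the set, since all its probes were above background. normexp also lowered the share of all genes over 2-fold apart to 5.30%, 4.74% and 4.62%, and the authors' scaling moved the median of all genes in suppressed aging minus aging to -0.09. No paired analysis was possible because there was only 1 array a condition, which also leaves no array to omit. Signal limits the dim genes: Pola2 read 19 on the aging array after background subtraction. That is 1.26 above the detection limit on the log2 scale, and the median local background there, before any subtraction, was 39.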
